A study of Mus musculus with 10 samples.

Results

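The collagen genes studied here are the rows of the deposited table of protein-coding genes whose symbol has the form Col, number, a, number, without Col17a1 and Col7a1, which belong to the structures that anchor epithelium. This rule found 42 genes among 22740 rows. The study measured RNA in the oesophagus of C57BL/6 mice given 4-NQO (4-nitroquinoline 1-oxide, a carcinogen that damages DNA and induces squamous tumours), with 5 libraries labelled as Grhl3 knockout (Grhl3 KO) and 5 as wild type. Grhl3 is a transcription factor of surface epithelia. The labels call the Grhl3 KO tissue oesophageal tumour and the wild-type tissue oesophageal tissue, whereas the design text of the series speaks of tumours in both, so genotype and tissue label cannot be told apart. All 10 libraries are labelled as exposed to 4-NQO; the dose, its duration, age and sex are not given in the labels. The series title writes cKO for the knockout and the names of the Grhl3 KO columns hold L2 and Cre (Cre is a recombinase used to delete marked genes), but no label names the promoter that drives it. Libraries are named by group and sample number.

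Collagens are proteins in which α chains wind into a triple helix, each chain a run of triplets that begin with glycine. Fibrillar collagens (types I, II, III, V, XI, XXIV and XXVII) pack into the fibres that give connective tissue its tensile strength, and fibroblasts are their main source. Type IV collagen forms the sheet-like network of basement membranes, and types VIII and X form networks of short chains. Type VI collagen assembles into beaded filaments around cells. FACIT collagens sit on the surface of fibrils, multiplexins (types XV and XVIII) sit in basement membrane zones, and the transmembrane types are anchored in cells. In the oesophagus these genes serve the lamina propria and submucosa below the squamous epithelium, the muscle coat and the vessels.

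The starts of 2 pairs of type IV genes that lie head to head are shown, chosen for their levels. Those of Col4a1 and Col4a2 kept a near constant ratio across libraries, and those of Col4a5 and Col4a6 did not. A further head-to-head pair, Col4a4 (minus strand, up to chr1:82586849) and Col4a3 (plus strand, from chr1:82586921), is not shown. The ratio of Col4a3 to Col4a4 per kb, on few counts, ran from 0.506 to 4.02. Whether the spacing of starts bears on these ratios was not tested. Sequences are from RefSeq (GRCm38.p6), 5′ to 3′ on the gene's own strand. Except for the stretch shared by Col4a1 and Col4a2, they stop before the first annotated exon. Capitals mark matches, on either strand, to the CCAAT box, to the GC box spelled GGGCGG, or to the TATA box spelled TATAAA. Col4a1 (minus strand) and Col4a2 (plus strand) have starts that overlap by 22 bases at chr8:11312805-11312826, given on the plus strand. These 22 bases lie within annotated exons of both genes and not upstream of them. Col4a6 (minus strand, chrX:141474077-141474326) and Col4a5 (plus strand, chrX:141475169-141475384) are printed up to the first annotated exon, and 1342 bases lie between their RefSeq starts at 141474076 and 141475419. Col18a1 (minus strand, chr10:77166549-77166780) is shown as the most abundant member. A further RefSeq start of Col18a1, at 77113705, is not shown, and gene counts do not tell which start was used. Col3a1 (plus strand, chr1:45311288-45311537) is shown as the most abundant fibrillar gene per kb of its principal transcript. Per kb of all annotated exons Col1a1 stood above Col3a1 in 7 of 10 libraries.
Col4a1 and Col4a2 shared start: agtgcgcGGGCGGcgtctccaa
Col4a6: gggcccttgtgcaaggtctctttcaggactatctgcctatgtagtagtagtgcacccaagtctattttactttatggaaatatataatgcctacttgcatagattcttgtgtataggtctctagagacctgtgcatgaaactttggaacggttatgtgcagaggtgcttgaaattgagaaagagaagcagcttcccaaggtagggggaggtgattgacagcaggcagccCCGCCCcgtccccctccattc
Col4a5: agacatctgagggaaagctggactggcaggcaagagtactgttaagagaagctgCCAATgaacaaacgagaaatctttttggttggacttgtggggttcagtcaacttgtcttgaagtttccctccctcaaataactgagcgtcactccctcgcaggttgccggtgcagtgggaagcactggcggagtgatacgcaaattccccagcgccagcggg
Col18a1: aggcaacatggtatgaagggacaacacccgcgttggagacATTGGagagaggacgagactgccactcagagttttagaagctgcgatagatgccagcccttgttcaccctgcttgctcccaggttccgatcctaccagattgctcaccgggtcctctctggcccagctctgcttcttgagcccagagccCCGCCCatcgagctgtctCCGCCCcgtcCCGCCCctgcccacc
Col3a1: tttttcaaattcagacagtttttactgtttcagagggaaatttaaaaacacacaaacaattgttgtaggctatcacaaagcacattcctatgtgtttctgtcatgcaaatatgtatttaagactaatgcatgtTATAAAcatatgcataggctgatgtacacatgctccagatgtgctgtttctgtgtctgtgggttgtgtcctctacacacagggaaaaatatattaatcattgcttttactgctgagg

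Of the 42 members, 33 had 36 promoter windows in the RefSeq table. In the 250 bases before the start, GGGCGG on either strand occurred in 21 of these windows (58.3%) and in 32.7% of all 32851 windows. CCAAT occurred in 11 (30.6%, all windows 33.8%) and TATAAA in 4 (11.1%, all windows 12.4%). Among the printed stretches, TATAAA stood only in that of Col3a1, and a CCAAT box in those of Col4a5 and Col18a1. GC boxes stood in those of Col4a6, Col18a1 and the shared Col4 start, in the last within exons. A match is a string of letters and was not tested for binding.

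The libraries held between 15.3 and 32.9 M counts each, and collagen members took 0.113 to 0.196% of them. Levels are given as CPM, counts per M of library size after TMM scaling, and differences are log2 fold changes of Grhl3 KO minus wild type from edgeR's quasi-likelihood test, with p adjusted over the 13731 tested genes and called under 0.05. Grhl3 itself was at 222 ± 66.8 CPM over the knockout libraries and 207 ± 112 CPM over the wild-type ones (SD, n = 5 each), so the counts of the whole gene do not check the genotype labels, and "Grhl3 KO" means the libraries so labelled. The squamous epithelium list summed to 45702 to 114602 CPM per library and the fibroblast list to 269.5 to 576 CPM. Markers of both epithelium and stroma were thus present in every library, and bulk counts do not show which cells made a collagen. Fewer cells of a type and less RNA per cell cannot be told apart in such samples. The sample numbers of wild-type 1528, 1555 and 1561 stand apart from those of the other 7, and Y-linked genes summed to 0.0527, 0.0539 and 72.3 CPM there, while the common series of 7 held 154 to 203 CPM. Where a named gene's fitted difference changed sign without these 3 libraries, that value is given beside it.

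No collagen gene passed the test between Grhl3 KO and wild type, in any class. Of the 42 members, 29 passed the filter on low counts, and 0 of these passed the threshold in either direction, against 0.0801% of all genes tested (11 of 13731; 0.0291% higher and 0.0510% lower). Among the tested members 13 had a fitted level above and 16 below wild type, where 49.7% of all genes were above, and the median log2 fold change was −0.041, against −0.0011 over all genes. At an unadjusted p under 0.05 there was 1 member, Col4a5 (3.45% of the members, against 7.16% of all genes). DESeq2 and limma voom called 0 members as well. In 0 members did the groups fail to overlap, against 1.35% of all genes. For 17 of the 29 the 95% limits lay within a 2-fold change either way. A p above the threshold does not show that the levels were equal, for these 17 or for the others.

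**Figure D1:**
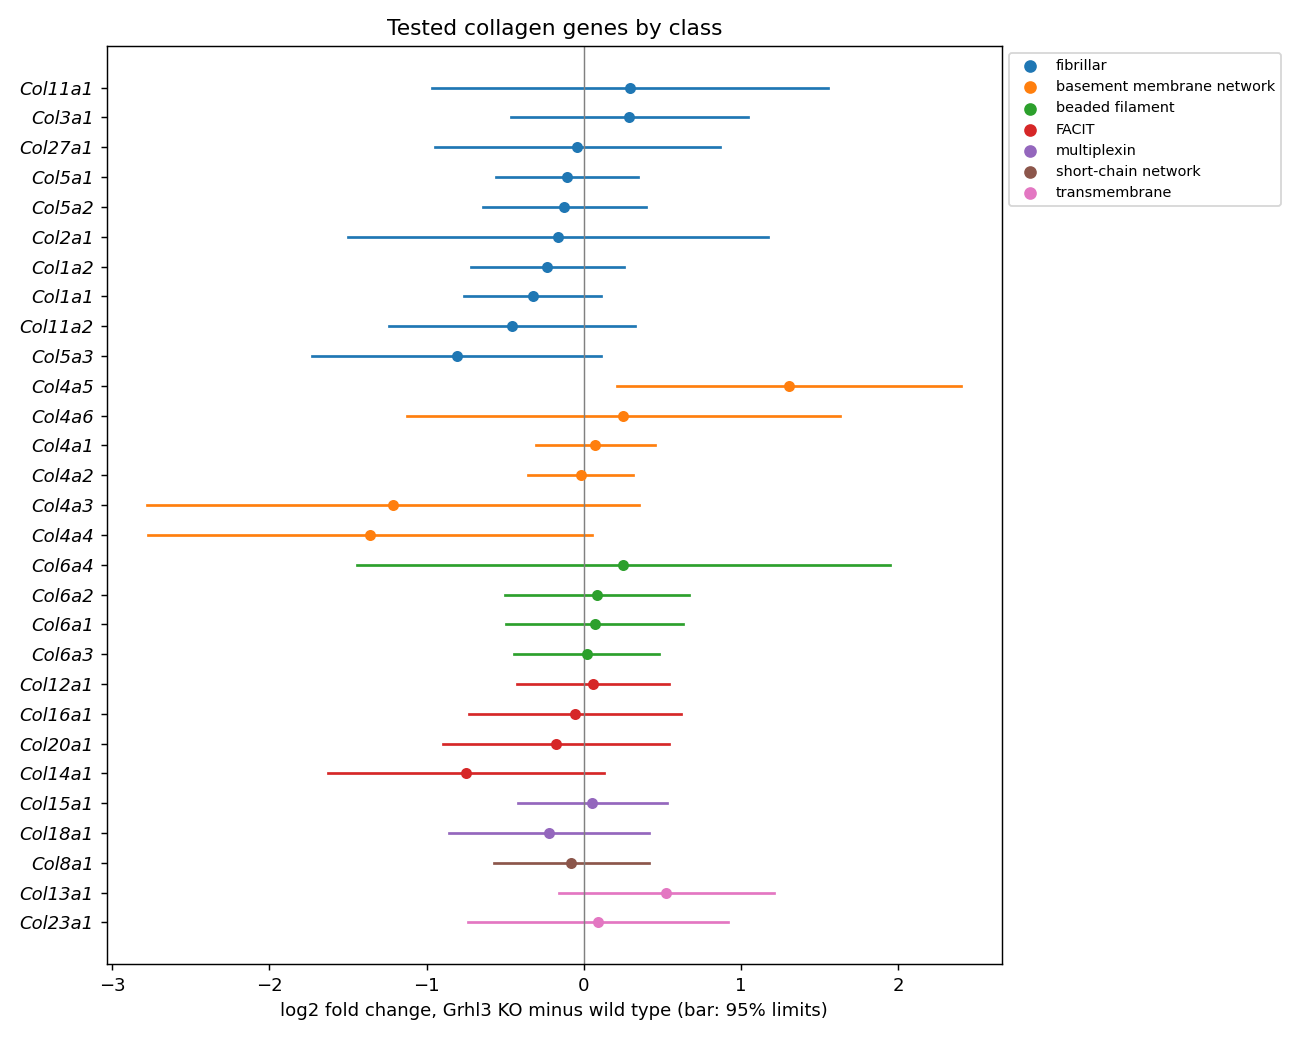
Log2 fold change of each of the 29 tested collagen genes (x axis, Grhl3 KO minus wild type, points) with 95% limits (bars), coloured by class. 28 of 29 intervals include 0, and that of Col4a5 does not (0.21 to 2.40).

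Set side by side per kb of the principal transcript, the members spanned a wide range of levels. Col18a1, whose C-terminal part is endostatin, was the most abundant at 68.6 ± 21.4 CPM per kb (SD over 10 libraries) and stood above Col4a1 in 9 of them. Below it came Col4a1 (25.7 ± 4.75), Col3a1 (22.7 ± 9.92), Col1a2 (17.95 ± 4.99), Col1a1 (16.7 ± 4.38), Col16a1 (15.9 ± 5.49) and Col4a2 (15.7 ± 2.60), all in CPM per kb. Each of these 6 differed from its neighbour by less than the spread over libraries. A step larger than that spread followed, since Col4a2 stood above Col5a2 (7.38 ± 2.10 CPM per kb) in all 10 libraries. The next neighbours down to Col13a1 (1.85 ± 0.699 CPM per kb) each differed by less than the larger SD of the pair. Between stood Col12a1, Col15a1, Col6a1, Col4a5, Col6a2, Col23a1, Col8a1, Col6a3, Col5a1, Col5a3 and Col4a6. Col20a1 (0.722 ± 0.237 CPM per kb) and 8 further tested genes, from Col27a1 down to Col2a1 (0.138 ± 0.106 CPM per kb), were scarce. Per kb of all annotated exons Col18a1 and Col4a1 again came first, but Col3a1 and Col1a2 ranked below Col1a1, so the order of the fibrillar genes depends on the length used.

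The 13 members that did not pass the filter averaged at most 0.520 CPM. They were Col8a2, Col10a1, Col24a1, Col6a5, Col6a6, Col9a1, Col9a2, Col9a3, Col19a1, Col22a1, Col25a1, Col26a1 and Col28a1. Col9a1, a chain of cartilage collagen IX, had 0 counts in every library, and Col19a1 and Col6a6 had 2 counts each over all 10 libraries. Col2a1, the main collagen of cartilage, passed the filter at 0.189 to 2.02 CPM. Of the 8 cartilage markers in the table, 7 averaged at most 0.266 CPM over the 10 libraries (Comp), with Lect1 at 0 throughout. The other, Sox9, a transcription factor that epithelia also express, was the only one tested, at 16.7 ± 5.85 CPM over the knockout libraries and 26.4 ± 6.74 CPM over the wild-type ones (SD, n = 5 each), with a log2 fold change of −0.66 (adjusted p = 0.646 in edgeR). Of the named genes in the small classes, Col8a2, a short-chain collagen, stood at 2.85 CPM in wild-type library 1528 and at most at 0.551 CPM in the other 9, and the hypertrophic cartilage gene Col10a1 reached 0.838 CPM. Col25a1, a transmembrane type, lay at 0.108 to 0.881 CPM, Col28a1 at 0 to 0.660 CPM and Col26a1 at 0 to 0.485 CPM.

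**Figure D2:**
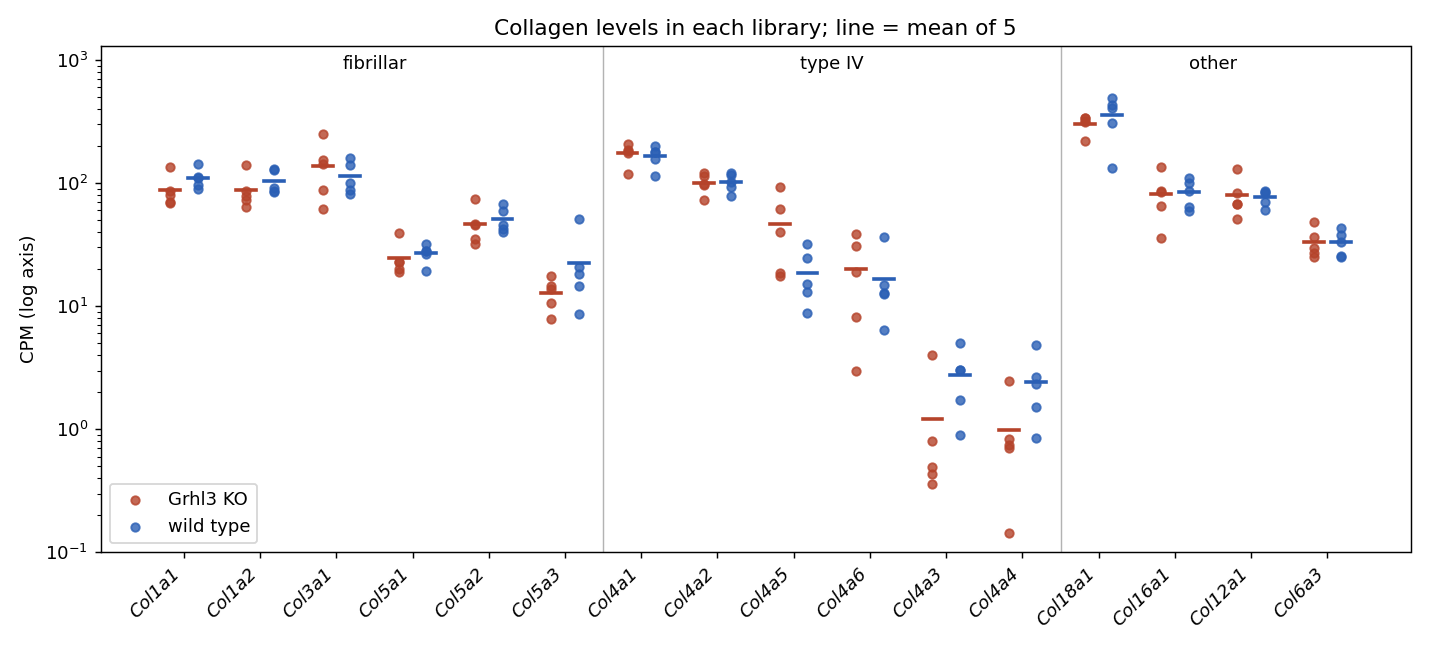
CPM (log axis) of 16 collagen genes in each library (points), 5 Grhl3 KO in red and 5 wild type in blue, with the group mean as a line. The groups overlap in every gene shown; Col4a5, Col4a6, Col4a3 and Col4a4 spread most, and Col4a1 and Col4a2 least.

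Among the 11 fibrillar genes, 10 were tested, with 2 above and 8 below wild type and a median log2 fold change of −0.14 (range −0.81 to 0.29). Col1a1 (ENSMUSG00000001506, chr11:94936224-94953042) and Col1a2 (ENSMUSG00000029661, chr6:4504814-4541544) encode the chains of type I collagen, the bulk of connective tissue. Col1a1 stood at 80.4, 69.1, 136, 69.6 and 85.9 CPM in Grhl3 KO libraries 1026, 1027, 1035, 1036 and 1043, and at 111, 144, 95.8, 89.1 and 113 CPM in wild-type libraries 1028, 1048, 1528, 1555 and 1561. Library 1035 was the highest of the Grhl3 KO group, second only to wild-type library 1048 among the 10, and the other 4 Grhl3 KO libraries lay below every wild-type library. The log2 fold change of Col1a1 was −0.32 with an SE of 0.20 and 95% limits from −0.76 to 0.11 (adjusted p = 0.792 in edgeR). Col1a2 stood at 85.9, 73.04, 141, 63.5 and 78.5 CPM in the 5 Grhl3 KO libraries, in the same order, and at 129, 129, 85.6, 83.9 and 91.4 CPM in the 5 wild-type libraries. Again library 1035 was highest, here of all 10, and the groups overlapped. Its log2 fold change was −0.23 with an SE of 0.22 and 95% limits from −0.72 to 0.25 (adjusted p = 0.891 in edgeR).

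Col3a1 (ENSMUSG00000026043, chr1:45311538-45349706) encodes type III collagen, which forms fine fibres with type I. Col3a1 stood at 143, 87.5, 249.7, 61.3 and 153 CPM in the 5 Grhl3 KO libraries, in the same order, and at 139, 159.9, 80.8, 88.4 and 99.9 CPM in the 5 wild-type libraries. Library 1035 stood far above all others and library 1036 lowest of the 10. For Col3a1 the fitted log2 difference was 0.29 with an SE of 0.34 and 95% limits from −0.47 to 1.04 (adjusted p = 0.920 in edgeR), and without library 1035 it was −0.033. Without wild-type libraries 1528, 1555 and 1561 it was −0.11. The ratio of Col3a1 to Col1a1 per kb was 1.61 ± 0.448 over the knockout libraries and 1.08 ± 0.179 over the wild-type ones (SD, n = 5 each). By library it was 1.89, 1.35, 1.96, 0.939 and 1.90 in Grhl3 KO and 1.34, 1.18, 0.899, 1.06 and 0.946 in wild type. Libraries 1026, 1027, 1035 and 1043 thus lay above all wild-type libraries, 1027 by a small margin over 1028, and 1036 within their range; this ratio was not tested. The ratio of Col1a1 to Col1a2 ran from 0.774 to 1.11 per kb of the principal transcripts, although type I collagen usually holds more α1 than α2 chains. Per kb of all annotated exons it ran from 1.62 to 2.33, so ratios between genes depend on the length used.

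The type V and XI chains regulate fibril diameter. Col5a1 was at 24.8 ± 8.17 CPM over the knockout libraries and 26.8 ± 4.66 CPM over the wild-type ones (SD, n = 5 each) and Col5a2 at 46.8 ± 16.9 CPM over the knockout libraries and 50.97 ± 11.8 CPM over the wild-type ones, with log2 fold changes of −0.11 and −0.12. Col5a3 (ENSMUSG00000004098, chr9:20770050-20815067) encodes a further type V chain, and it stood at 7.80, 10.7, 17.6, 14.5 and 13.7 CPM in the 5 Grhl3 KO libraries, in the same order, and at 8.58, 20.7, 50.9, 14.7 and 18.2 CPM in the 5 wild-type libraries. Wild-type library 1528 stood far above the other 9, and the remaining libraries of the groups overlapped. For Col5a3 the fitted log2 difference was −0.81 with an SE of 0.42 and 95% limits from −1.73 to 0.11 (adjusted p = 0.746 in edgeR), and without library 1528 it was −0.27. Col11a2, a type XI chain known from cartilage, was at 1.68 ± 0.309 CPM over the knockout libraries and 2.30 ± 1.13 CPM over the wild-type ones with a log2 fold change of −0.46 (adjusted p = 0.852 in edgeR). Without wild-type libraries 1528, 1555 and 1561 its log2 fold change was 0.013. Col11a1 and Col27a1, scarce at 0.158 to 2.26 and 1.48 to 5.38 CPM, had 0.29 and −0.041, and Col11a1 had −0.55 without the same 3 libraries.

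All 6 type IV genes were tested, with 3 above and 3 below wild type and a median log2 fold change of 0.026, but a wide range from −1.36 to 1.31. Col4a1 (ENSMUSG00000031502, chr8:11198423-11312826) and Col4a2 (ENSMUSG00000031503, chr8:11312805-11449287) encode the chains of the network found in nearly all basement membranes, vessels included. Col4a1 stood at 119, 175, 209, 183 and 186 CPM in the 5 Grhl3 KO libraries, in the same order, and at 202, 156, 179, 115 and 178 CPM in the 5 wild-type libraries. Grhl3 KO library 1026 and wild-type library 1555 were the low ones, and the other 8 lay between 156 and 209 CPM. Col4a2 stood at 72.8, 98.6, 121, 96.9 and 113 CPM in the 5 Grhl3 KO libraries, in the same order, and at 116, 93.4, 120.2, 78.1 and 102 CPM in the 5 wild-type libraries. The same 2 libraries were lowest. The log2 fold change was 0.073 with an SE of 0.17 and 95% limits from −0.30 to 0.45 (adjusted p = 0.967 in edgeR) for Col4a1, and −0.034 without wild-type libraries 1528, 1555 and 1561. For Col4a2 it was −0.021 with an SE of 0.15 and 95% limits from −0.36 to 0.31 (adjusted p = 0.989 in edgeR), and these were the narrowest limits of all members.

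Col4a5 (ENSMUSG00000031274, chrX:141475385-141689234) and Col4a6 (ENSMUSG00000031273, chrX:141165403-141474076) encode the α5 and α6 chains, which form a network below stratified epithelium and around smooth muscle. Col4a5 stood at 40.3, 61.2, 92.9, 17.5 and 18.7 CPM in the 5 Grhl3 KO libraries, in the same order, and at 13.1, 32.01, 8.75, 24.7 and 15.01 CPM in the 5 wild-type libraries. Libraries 1035, 1027 and 1026 lay above all wild-type libraries, while 1036 and 1043 lay within their range. Col4a5 had the smallest p of all members, 0.0239 before adjustment in edgeR. Its mean was 46.1 ± 31.7 CPM over the knockout libraries and 18.7 ± 9.45 CPM over the wild-type ones (SD, n = 5 each). The fit gave a log2 fold change of 1.31 with an SE of 0.50 and 95% limits from 0.21 to 2.40 (adjusted p = 0.617 in edgeR). Over all alternatives the log2 fold change of Col4a5 ran from 0.88 to 1.59 and the adjusted p from 0.216 to 0.980. Col4a6 stood at 38.3, 31.05, 8.12, 2.99 and 18.8 CPM in the 5 Grhl3 KO libraries, in the same order, and at 12.6, 36.4, 12.8, 14.9 and 6.40 CPM in the 5 wild-type libraries. Here 1026 and 1027 were again high, as was wild-type library 1048, but 1035 was low and 1036 the lowest of all, and the log2 fold change of Col4a6 was 0.25 with an SE of 0.63 and 95% limits from −1.13 to 1.63 (adjusted p = 0.969 in edgeR). Without wild-type libraries 1528, 1555 and 1561 Col4a6 had −0.31, and without Grhl3 KO library 1026 −0.12. The ratio of Col4a5 to Col4a6 per kb lay between 0.695 and 2.39 in wild type and at 1.07, 2.004, 11.6, 5.94 and 1.01 in the Grhl3 KO libraries in order. Libraries 1035 and 1036 thus stood apart from the other 8, whose ratios were 0.695 to 2.39.

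Col4a3 (ENSMUSG00000079465, chr1:82586921-82722059) and Col4a4 (ENSMUSG00000067158, chr1:82448423-82586849) encode the α3 and α4 chains, best known from the kidney filter. They were scarce here, with 6 to 94 and 5 to 90 counts per library. Col4a3 stood at 4.03, 0.800, 0.491, 0.433 and 0.358 CPM in the 5 Grhl3 KO libraries, in the same order, and at 3.02, 0.895, 3.01, 5.07 and 1.74 CPM in the 5 wild-type libraries. Grhl3 KO library 1026 stood far above the other 4 of its group, which were below every wild-type library. Col4a4 stood at 2.45, 0.704, 0.144, 0.748 and 0.836 CPM in the 5 Grhl3 KO libraries, in the same order, and at 2.31, 0.843, 2.64, 4.85 and 1.51 CPM in the 5 wild-type libraries. Again 1026 was the highest in Grhl3 KO, and 1555 was the highest in wild type for both genes. Log2 fold changes were −1.21 with an SE of 0.71 and 95% limits from −2.78 to 0.35 (adjusted p = 0.787 in edgeR) for Col4a3. For Col4a4 it was −1.36 with an SE of 0.64 and 95% limits from −2.77 to 0.054 (adjusted p = 0.711 in edgeR). Without library 1026 they were −2.36 and −2.02, still short of the threshold. Col4a3 to Col4a4 per kb was 1.23 to 1.54 in the 5 wild-type libraries and 0.506 to 4.02 in Grhl3 KO, where libraries other than 1026 had 5 to 25 counts of either gene.

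The other classes gave 13 tested genes, 8 above and 5 below wild type, with a median log2 fold change of 0.055. Col18a1 (ENSMUSG00000001435, chr10:77052178-77166548) stood apart in level. Col18a1 stood at 335, 312, 317, 336 and 219 CPM in the 5 Grhl3 KO libraries, in the same order, and at 132, 405, 433, 309.6 and 490.2 CPM in the 5 wild-type libraries. Library 1043 was the low one in Grhl3 KO and 1028 in wild type, where the other 4 reached up to 490.2 CPM. For Col18a1 the fitted log2 difference was −0.22 with an SE of 0.29 and 95% limits from −0.86 to 0.41 (adjusted p = 0.935 in edgeR), and without wild-type libraries 1528, 1555 and 1561 it was 0.18. Its relative Col15a1 was at 26.7 ± 5.98 CPM over the knockout libraries and 25.7 ± 6.19 CPM over the wild-type ones (SD, n = 5 each), with a log2 fold change of 0.055 (adjusted p = 0.981 in edgeR), or −0.058 without the same 3 libraries. In that gene Grhl3 KO library 1026 and wild-type library 1555, the libraries low in Col4a1 and Col4a2, were again the lowest, holding 16.2 and 14.8 CPM where the other 8 held 27.4 to 30.6 CPM.

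The endothelial list (most abundant Pecam1 and Flt1), 10 of 10 markers tested, summed to 123 CPM in library 1026 and 95.02 CPM in library 1555, the lowest of each group, and to 139 to 222 CPM in the other 8. Its part in the levels of Col4a1, Col4a2 and Col15a1 was not tested.

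The 4 tested type VI genes all had fitted levels slightly above wild type, with a median log2 fold change of 0.077. Col6a1, Col6a2 and Col6a3, which together make its filament, were at 21.1 ± 4.18 CPM over the knockout libraries and 20.2 ± 8.17 CPM over the wild-type ones (SD, n = 5 each), 19.99 ± 4.80 CPM over the knockout libraries and 18.8 ± 7.60 CPM over the wild-type ones, and 33.4 ± 9.41 CPM over the knockout libraries and 32.98 ± 7.90 CPM over the wild-type ones. Their log2 fold changes were 0.069 (adjusted p = 0.981 in edgeR), 0.085 (adjusted p = 0.978 in edgeR) and 0.018 (adjusted p = 0.992 in edgeR). Wild-type libraries 1028 and 1048 were high in Col6a1, at 29.05 and 29.01 CPM, and 1528, 1555 and 1561 low, at 14.8, 15.5 and 12.5 CPM, so without the latter 3 the log2 fold changes were −0.46, −0.44 and −0.28, none past the threshold. Col6a4, at 0.141 to 3.58 CPM, varied most of the 4 tested.

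The FACIT collagens were led by Col16a1, found near basement membranes and fibrils, and Col12a1, which coats type I fibrils under tension. Col16a1 stood at 135, 85.5, 85.05, 64.6 and 35.6 CPM in the 5 Grhl3 KO libraries, in the same order, and at 59.04, 63.6, 101, 86.7 and 111 CPM in the 5 wild-type libraries. Library 1026 was the highest and 1043 the lowest of all 10, both in Grhl3 KO. The log2 fold change of Col16a1 was −0.054 with an SE of 0.31 and 95% limits from −0.73 to 0.62 (adjusted p = 0.989 in edgeR), and 0.41 without wild-type libraries 1528, 1555 and 1561. Col12a1 stood at 130.04 CPM in library 1035, where the other 9 held 51.1 to 86.1 CPM, with a log2 fold change of 0.057 (adjusted p = 0.981 in edgeR). Col20a1 was at 3.40 ± 0.961 CPM over the knockout libraries and 3.83 ± 1.46 CPM over the wild-type ones (SD, n = 5 each), with −0.18 (adjusted p = 0.957 in edgeR). Col14a1, a FACIT of dense connective tissue, was at 1.54 ± 0.755 CPM over the knockout libraries and 2.57 ± 0.945 CPM over the wild-type ones. Its log2 fold change was −0.75 with an SE of 0.40 and 95% limits from −1.63 to 0.13 (adjusted p = 0.757 in edgeR).

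Of the remaining genes, the transmembrane collagen Col23a1 stood at 57.5 CPM in knockout library 1035, where the other 9 held 13.98 to 30.6 CPM. Its log2 fold change was 0.091 with an SE of 0.38 and 95% limits from −0.74 to 0.92 (adjusted p = 0.982 in edgeR), and −0.50 without library 1035. Col13a1, a transmembrane collagen of adhesion sites and neuromuscular junctions, stood at 5.98, 7.59, 5.40, 5.28 and 10.2 CPM in the Grhl3 KO libraries in order and at 3.02, 6.95, 6.54, 2.59 and 4.80 CPM in the wild-type libraries. Library 1043 was highest, and the groups overlapped. For Col13a1 the fitted log2 difference was 0.53 with an SE of 0.31 and 95% limits from −0.16 to 1.21 (adjusted p = 0.792 in edgeR). The skeletal muscle list (most abundant Acta1 and Myh1) had 16 of 16 markers tested, 16 with a fitted level above wild type and 0 called. It summed to 3849, 1047, 2465, 846 and 6228 CPM in the Grhl3 KO libraries in order and to 1473 to 3294 CPM in wild type. Libraries 1026 and 1043 thus lay above every wild-type library, and 1027 and 1036 below every one. With the mean of the skeletal muscle markers as a covariate the log2 fold change of Col13a1 was 0.51. The part of muscle content in the level of Col13a1 was not tested. Col8a1, a short-chain collagen of vessel walls, was at 20.8 ± 7.01 CPM over the knockout libraries and 21.9 ± 4.82 CPM over the wild-type ones (SD, n = 5 each), with −0.079 (adjusted p = 0.976 in edgeR).

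A single library recurred in these values. Grhl3 KO library 1035 was the highest of the 10 for 13 of the 29 tested members, and no other library was highest for more than 4. Collagen members summed to 1862 CPM in it and to 1186 to 1622 CPM in the other 9. The fibroblast list (most abundant Postn and Fbln1), 15 of 15 markers tested with 10 above and 5 below wild type and 0 called, summed to 576 CPM in library 1035 and 269.5 to 459.9 CPM in the others. Without library 1035 the median log2 fold change was −0.38 in the fibrillar class and −0.21 over all tested members, and 0 members were called. With the mean of the fibroblast markers as a covariate they were −0.25 and −0.12, again with 0 called.

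The make-up of the collagen transcripts, as shares of summed collagen CPM per kb, overlapped between the groups. Fibrillar genes took 28.4 ± 6.14% of the knockout total and 30.1 ± 5.31% in wild type (SD, n = 5 each). Multiplexins, mostly Col18a1, took 29.2 ± 5.69% of the knockout total and 31.1 ± 9.41% in wild type. The type IV network took 22.03 ± 3.05% of the knockout total and 19.1 ± 3.36% in wild type, FACIT collagens 9.86 ± 2.93% of the knockout total and 9.89 ± 1.88% in wild type, and type VI 5.98 ± 1.23% of the knockout total and 5.57 ± 2.12% in wild type. Transmembrane types took 2.74 ± 0.690% of the knockout total and 2.35 ± 0.473% in wild type and short-chain networks 1.74 ± 0.317% of the knockout total and 1.82 ± 0.140% in wild type. In each of these 7 classes the means differed by less than the SD of either group. The eighth, Col26a1 and Col28a1, both below the filter on counts, took 0.0347 ± 0.0245% of the knockout total and 0.0756 ± 0.0339% in wild type; that difference exceeded both SDs, and the ranges of 0.00698 to 0.0745% and 0.0519 to 0.132% overlapped. Type IV had a Grhl3 KO range of 17.6 to 25.4% and a wild-type range of 17.1 to 24.9%; the shares were not tested. Wild-type library 1028 had the smallest multiplexin share, 15.5%, and the largest fibrillar share, 37.8%. All these shares depend on the length used, here that of the principal transcript. As shares of collagen counts, with no length used, multiplexins took 24.5 ± 4.94% in Grhl3 KO and 26.3 ± 8.25% in wild type. By the same measure fibrillar genes took 28.9 ± 5.87% and 30.8 ± 4.68%, type IV 25.2 ± 3.39% and 21.9 ± 3.43%, and FACIT collagens 12.1 ± 2.90% and 12.0 ± 2.06%.

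**Figure D3:**
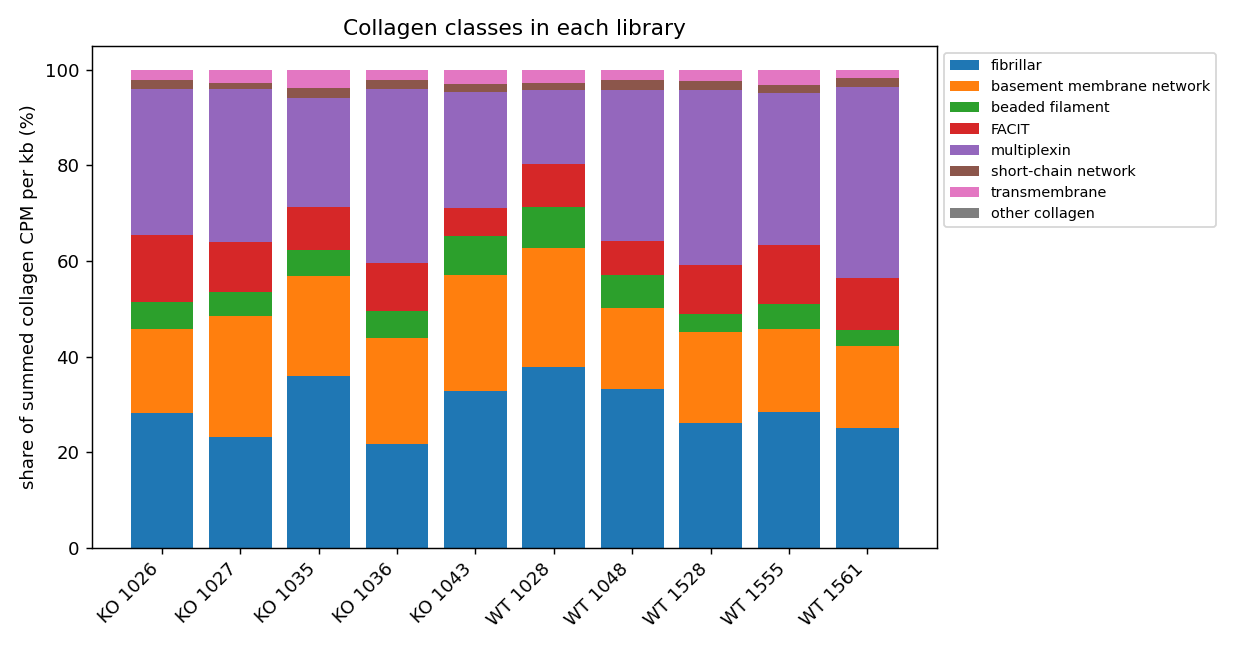
Share of summed collagen CPM per kb of the principal transcript (%) taken by each class (stacked colours) in each library, 5 Grhl3 KO on the left and 5 wild type on the right. Fibrillar genes take 21.7 to 37.8%, multiplexins 15.5 to 40.00% and the type IV network 17.1 to 25.4%.

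Chains of the same molecule, and leading genes of different classes, were compared across the 10 libraries in 9 pairs of log2 CPM values, which share library and depth. For Col6a1 and Col6a2 Pearson's r was 0.97 (permutation p = 2e-05, 0.00018 adjusted over the 9 pairs) and Spearman's rho 0.96 (permutation p = 2e-05, 0.00018 adjusted), the smallest p that 100000 resamples can give. For Col4a1 and Col4a2, which share their start, Pearson's r was 0.93 (permutation p = 0.0007, 0.00210 adjusted over the 9 pairs) and Spearman's rho 0.85 (permutation p = 0.00284, 0.00876 adjusted). Without libraries 1026 and 1555, the farthest from the median of Col4a1, r was 0.75 (exact permutation p = 0.0224, 0.0673 adjusted) and rho 0.74 (0.138 adjusted), short of the threshold after adjustment with 8 libraries. For Col1a1 and Col1a2 Pearson's r was 0.91 (permutation p = 0.00036, 0.00162 adjusted over the 9 pairs) and Spearman's rho 0.85 (permutation p = 0.00292, 0.00876 adjusted). Without libraries 1035 and 1048 r was 0.82 (exact permutation p 0.0172 after adjustment) and rho 0.81, which missed the threshold (0.0980 after adjustment). For Col6a1 and Col6a2 without 1028 and 1048 r was 0.95. Within the 7 libraries of the common number series the 3 values of r were 0.93, 0.96 and 0.95 for the type VI, type IV and type I pairs, all past the threshold, whereas by rho only the type IV pair passed (exact permutation p 0.0250 after adjustment, and 0.0512 for the other pairs); the other series holds 3 libraries, too few for a value.

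The other 6 pairs missed the threshold. For Col1a1 and Col3a1 Pearson's r was 0.68 (permutation p = 0.0331, 0.0745 adjusted over the 9 pairs) and Spearman's rho 0.60 (permutation p = 0.0716, 0.161 adjusted), and r was 0.38 without libraries 1035 and 1048. For Col5a1 and Col5a2 r was 0.53 and rho 0.42 (permutation p = 0.124 and 0.230), whereas within the 7 libraries r was 0.96. The ratio of Col5a2 to Col5a1 per kb was 4.46 in wild-type library 1528, the library high in Col5a3 and Col8a2, and 1.83 to 2.58 in the other 9. Across classes, Col1a1 and Col4a1 gave an r of 0.25 and rho of 0.21 (permutation p = 0.498 and 0.559). Col1a1 and Col6a1 gave 0.43 and 0.24 (permutation p = 0.217 and 0.513), with r at 0.85 within the 7 libraries and −0.013 without 1035 and 1048. Col4a1 and Col18a1 gave −0.26 and −0.24 (permutation p = 0.489 and 0.514). Col8a1 and Col8a2 gave −0.26 and −0.12 (permutation p = 0.468 and 0.754), with Col8a2 near the limit of detection. After adjustment over the 9 pairs, p for r in these 6 ran from 0.0745 to 0.498.

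**Figure D4:**
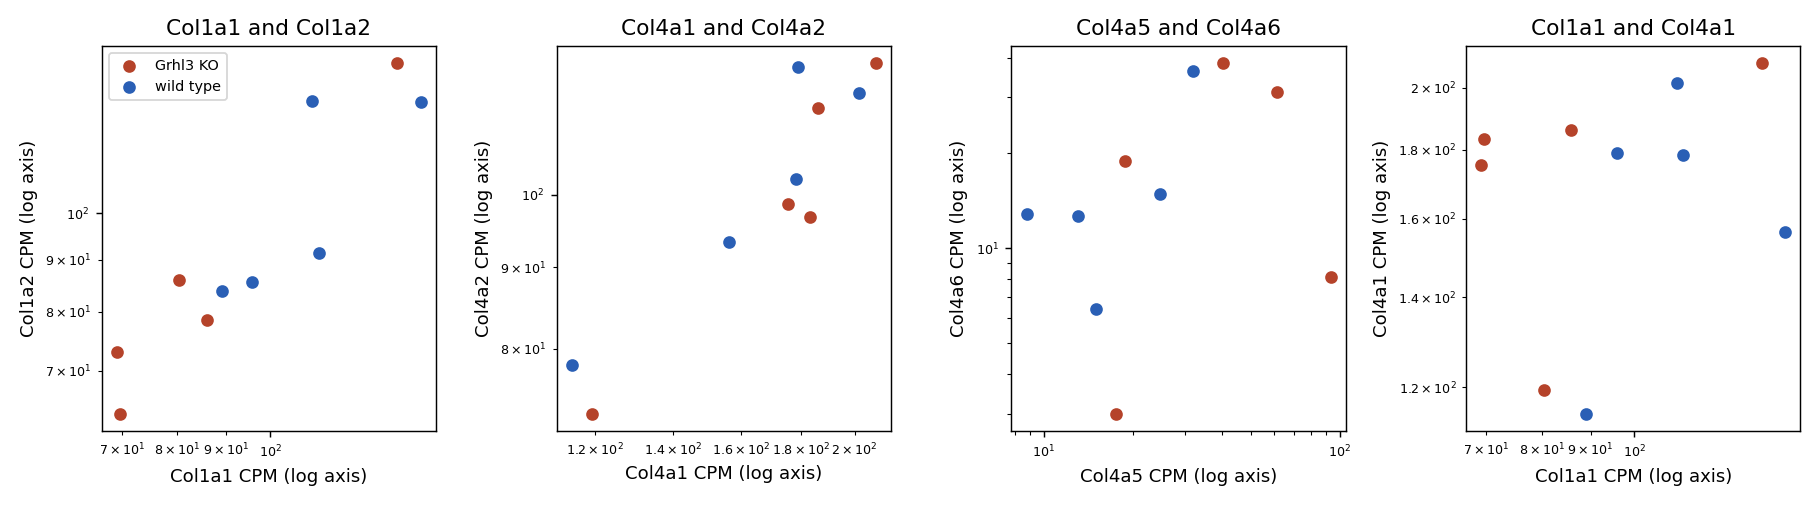
CPM of the genes of 4 pairs plotted against each other (both axes log), 1 point per library, Grhl3 KO in red and wild type in blue. Col1a1 with Col1a2 (r 0.91) and Col4a1 with Col4a2 (r 0.93) lie along a line; Col4a5 with Col4a6 and Col1a1 with Col4a1 (r 0.25) scatter.

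Genes that make, fold, bind or break down collagen gave 0 calls in 6 lists, against 0.0801% of all genes. Of 19 tested genes of chain folding and modification, 8 had a fitted level above and 11 below wild type (median log2 fold change −0.046). Those of smallest p were Colgalt1, which adds galactose to hydroxylysine (0.26), the lysyl hydroxylase Plod1 (−0.36) and the prolyl hydroxylase subunit P4ha3 (0.59), with edgeR adjusted p from 0.692 to 0.760. Of 11 genes of procollagen processing and crosslinking, 4 were above and 7 below (median −0.024). Tll1, a procollagen C-proteinase, was at 2.41 ± 0.837 CPM over the knockout libraries and 5.58 ± 3.17 CPM over the wild-type ones (SD, n = 5 each), a log2 fold change of −1.19 with an SE of 0.41 and 95% limits from −2.09 to −0.30 (adjusted p = 0.519 in edgeR). The lysyl oxidase relative Loxl4 had −0.67 and the N-proteinase Adamts2 0.35 (edgeR adjusted p from 0.787 to 0.799).

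Of 7 small leucine-rich proteoglycans, which bind fibrils and space them, 5 were above and 2 below (median log2 fold change 0.26). Decorin (Dcn) was at 67.3 ± 39.9 CPM over the knockout libraries and 38.2 ± 22.7 CPM over the wild-type ones (SD, n = 5 each) and lumican (Lum) at 15.6 ± 9.11 CPM over the knockout libraries and 8.14 ± 5.55 CPM over the wild-type ones, with log2 fold changes of 0.81 and 0.93, and podocan (Podn) had −0.73 (edgeR adjusted p from 0.763 to 0.795). Dcn and Lum are also in the fibroblast list. The 8 collagen receptors split into 4 above and 4 below (median −0.019), led by the collagen-activated kinase Ddr1 (0.22), the integrin subunit Itgb1 (−0.25) and its collagen-binding partner Itga2 (−0.40; edgeR adjusted p from 0.787 to 0.913). Without wild-type libraries 1528, 1555 and 1561 Itgb1 had 0.13. Among 9 collagen-degrading enzymes and their inhibitors 2 were above and 7 below (median −0.29). The membrane protease Mmp14 was at 136 ± 19.1 CPM over the knockout libraries and 177 ± 39.9 CPM over the wild-type ones (SD, n = 5 each), a log2 fold change of −0.38 with an SE of 0.16 and 95% limits from −0.74 to −0.024 (adjusted p = 0.673 in edgeR), and the gelatinases Mmp2 and Mmp9 had −0.45 and −1.96 (edgeR adjusted p from 0.760 to 0.795). Mmp9 stood at 728 CPM in wild-type library 1528 and at most at 195 CPM in the other 9, so that its log2 fold change was −0.44 without 1528 and 0.57 without 1528, 1555 and 1561. Of 12 genes of TGF-beta, the main inducer of collagen genes, 3 were above and 9 below (median −0.13), with the feedback inhibitor Smad7 at −0.33 and the ligand Tgfb3 at −0.81 (edgeR adjusted p from 0.692 to 0.813). Tgfb3 was likewise highest in library 1528, at 39.5 CPM against at most 16.6 CPM elsewhere, and had −0.18 without it.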

How the data were processed

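RNA of 10 libraries was measured with a TruSeq stranded mRNA kit, per the labels' protocols. The authors deposited whole-number counts per protein-coding gene, made with featureCounts on GRCm38 per the submitters' processing notes; the aligner, the annotation release and the handling of reads that match several genes are, in the sources used here, not given. Columns were joined to sample titles by sample number, with 0 sample columns left over and 0 rows lacking a gene name. The members and lists were chosen with earlier results of these data known.

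Genes were filtered with filterByExpr (minimum count 10, total 15; 13731 of 22740 kept), scaled by TMM and tested with the robust quasi-likelihood F-test of edgeR 4.0.16 in R 4.3.3, Benjamini-Hochberg adjusted over all genes. A prior count of 2 went into log2 CPM. SE and 95% limits follow from the F statistic. Correlations used permutation tests in SciPy 1.17.1 (100000 resamples over 10 libraries, exact below). Positions and lengths are from GENCODE vM21 (GRCm38), with 21842 identifiers found; lengths are those of the APPRIS principal transcript with the longest coding sequence. The labels do not tie each library to an animal of its own, so p-values measure the spread between these samples. Between any 2 libraries of a group the chi-square per degree of freedom was at least 45.4, where sampling noise alone gives about 1, so each was counted as a sample of its own. The edgeR test was also run on simulated data with 13731 genes and this comparison. It found 67.7% of the genes given a 2-fold change and 91.8% of those given a 4-fold one, with 7 false calls. The simulation changed 99 genes 2-fold and 98 genes 4-fold, drew counts independently and held no outlying libraries. In the data 11 genes were called and single libraries stood apart. The simulated shares thus do not tell how many changed collagen genes the test would find.

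Named members are up to 3 of highest level per class and the 8 of smallest p, 27 in all; process lists name the 3 of smallest p, and cell type lists the 2 most abundant. For 1 gene so chosen the values are not reported here. Other members, Grhl3 and Lect1 are named outside this rule, after their values were seen. Other cell type lists, such as adipocyte (21.2 to 283 CPM summed), Schwann cell (37.1 to 95.02), smooth muscle (468 to 1276), leukocyte (1379.8 to 9431), mesothelium (1.13 to 24.4) and thyroid (0.369 to 4.57), held no called gene except Msln of the mesothelium list. The leukocyte sum was mostly S100a8 (1258 to 9263 CPM), and Lyz2, next in level, held 74.1 to 117 CPM. That sum therefore rests on 1 gene and is no measure of leukocyte content. Alternatives were other scalings, DESeq2 1.42.0, limma voom 3.58.1, other filters, covariates and leaving out libraries.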

Additional observations from a re-analysis of the deposited data

Results flagged for a closer look

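In 27 named members, each group of 5 libraries was checked for a library whose gap to its nearest neighbour exceeded 0.71 of the whole range. For independent values from a normal distribution chance gives this in about 5% of groups. Here 9 of 54 groups held one. The values are CPM, and the groups share the same libraries, so this count cannot be set against that 5%. Col4a3 stood at 4.03 CPM in Grhl3 KO library 1026, against 0.358 to 0.800 CPM in the other 4 of that group. Col1a1 stood at 136 CPM in Grhl3 KO library 1035, against 69.1 to 85.9 CPM in the other 4 of that group. Col5a3 stood at 50.9 CPM in wild-type library 1528, against 8.58 to 20.7 CPM in the other 4 of that group. Col18a1 stood at 219 CPM in Grhl3 KO library 1043, against 312 to 336 CPM in the other 4 of that group. Col15a1 stood at 16.2 CPM in Grhl3 KO library 1026, against 27.4 to 30.6 CPM in the other 4 of that group. Col15a1 stood at 14.8 CPM in wild-type library 1555, against 27.5 to 30.4 CPM in the other 4 of that group. Col28a1 stood at 0 CPM in Grhl3 KO library 1036, against 0.224 to 0.314 CPM in the other 4 of that group. Col8a2 stood at 2.85 CPM in wild-type library 1528, against 0.0472 to 0.424 CPM in the other 4 of that group. Col23a1 stood at 57.5 CPM in Grhl3 KO library 1035, against 13.98 to 19.2 CPM in the other 4 of that group.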

How the results depend on the processing

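Under 22 alternatives to the edgeR fit, 0 collagen members and 0 genes of the 6 process lists were called in either direction, while calls over all genes ran from 0 to 57 higher and 0 to 62 lower (57 and 62 in DESeq2, 0 and 1 in limma voom, 0 and 1 without wild-type 1528, 1555 and 1561, against 4 and 7). The class medians ran from −0.45 to −0.051 (fibrillar), −0.18 to 0.082 (type IV) and −0.17 to 0.087 (other classes). Without Grhl3 KO libraries 1035 and 1043, an alternative chosen after the data were seen, the fibrillar median was −0.45. Log2 fold changes with a sign opposite to the reported one, none called, were: without wild-type libraries 1528, 1555 and 1561, Col4a1 −0.034, Col6a3 −0.28, Col6a1 −0.46, Col6a2 −0.44, Col16a1 0.41, Col3a1 −0.11, Col11a2 0.013, Col18a1 0.18, Col15a1 −0.058, Col4a6 −0.31, Col11a1 −0.55, Itgb1 0.13, Mmp9 0.57; with the Y-linked covariate, Col4a1 −0.043, Col6a3 −0.11, Col6a1 −0.22, Col6a2 −0.22, Col16a1 0.11, Col15a1 −0.12, Col4a6 −0.0043, Col11a1 −0.47, Col27a1 0.036, Tgfb3 0.16; without Grhl3 KO 1035 and 1043, Col4a1 −0.056, Col6a3 −0.27, Col6a1 −0.15, Col6a2 −0.15, Col16a1 0.17, Col12a1 −0.077, Col3a1 −0.23, Col15a1 −0.074, Col23a1 −0.48; in limma voom, Col12a1 −0.0026, Col23a1 −0.026, Col4a6 −0.10; with the fibroblast covariate, Col6a3 −0.054, Col23a1 −0.12; with the skeletal muscle covariate, Col6a3 −0.039, Col6a2 −0.0033. With 1 library left out the sign changed within these ranges: Col12a1 −0.19 to 0.17, Col15a1 −0.10 to 0.19, Col16a1 −0.31 to 0.13, Col23a1 −0.50 to 0.23, Col27a1 −0.41 to 0.21, Col3a1 −0.033 to 0.47, Col4a1 −0.045 to 0.18, Col4a2 −0.11 to 0.076, Col4a6 −0.12 to 0.76, Col6a1 −0.062 to 0.24, Col6a2 −0.042 to 0.28, Col6a3 −0.16 to 0.14, Col8a1 −0.30 to 0.047. The causes were not tested. The r of Col8a1 with Col8a2 was 0.38 and that of Col1a1 with Col6a1 −0.013 without the 2 farthest libraries, where that of Col4a1 with Col4a2 was 0.75. Within the 7 libraries, pairs that then passed by r had 0.79 (Col1a1 with Col3a1), 0.96 (Col5a1 with Col5a2) and 0.85 (Col1a1 with Col6a1); by rho none of these 3 passed (exact permutation p 0.0512 after adjustment for each). No paired analysis was possible because the groups share no sample number. Without the filter on low counts 41 members were tested, with 0 called; Col9a1 had no counts to compare. Intervals cover the spread between these libraries only.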
